A study of Homo sapiens with 8 samples.

Results

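The genes described here are the 5 subunits of the transcription factor NF-kB (NFKB1, NFKB2, REL, RELA and RELB) and 5 genes that feed back on its pathway (NFKBIA, NFKBIE, TNFAIP3, BIRC3 and TRAF1). They were followed in Raji cells, a human Burkitt lymphoma B cell line, in which a super-enhancer on chromosome 1 (chr1:192515157-192741754, hg38) had been targeted for removal by CRISPR/Cas9 (RGS-SE knockout, KO), against unedited Raji cells (wild type, WT). The 10 genes were taken by symbol from the 25377 genes of the RNA table, and the 54 open chromatin peaks that the authors' annotation gives to these symbols were taken from the 70312 peaks of the ATAC table. Poly(A) RNA-seq, and ATAC-seq, an assay of open chromatin by transposase insertion, were each run on 2 KO and 2 WT libraries, which the labels call biological replicates. The knockout was made by electroporating a Cas9 vector with a pair of guide plasmids, followed by puromycin selection and the picking of single clones, while no such handling is stated for WT cells. The number of clones is not given, so the effect of the targeting and the effect of the clone cannot be told apart.

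NF-kB works as a dimer of its subunits, which inhibitory IkB proteins such as the products of NFKBIA and NFKBIE hold in the cytoplasm until a kinase complex marks the inhibitor for destruction. Freed dimers enter the nucleus, bind kB sites in DNA and switch on genes for B cell survival, adhesion and chemokines, together with their own inhibitors. NFKBIA, TNFAIP3, BIRC3 and TRAF1 are known targets of NF-kB, and in B cells their RNA is commonly read as a trace of pathway activity. Raji cells carry Epstein-Barr virus, whose latent membrane protein is known to engage this pathway.

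The promoters of the members carry different numbers of sequences that match the kB consensus, which is the letter pattern that NF-kB dimers are known to bind. The search covered both strands, so that 1 palindromic site can count as a pair of overlapping matches. RefSeq promoters on GRCh38.p14, 250 bases before to 50 after a gene start, were available for 8 of the 10 genes, and 6 of these held a match in at least 1 window. Over all RefSeq promoters of the same length, 5.91% held one. That share is per window, whereas the members were counted per gene and some have more than 1 window. The promoters of TNFAIP3, NFKBIA and BIRC3 are shown whole, in the direction of the gene and with the matches in capitals, because the RNA of all 3 genes rose in KO cells, whereas of their promoter peaks the one at TNFAIP3 passed the test and the others did not. They lie at chr6:137867009-137867308 (plus strand), chr14:35404700-35404999 (minus strand) and chr11:102317234-102317533 (plus strand).
TNFAIP3 promoter: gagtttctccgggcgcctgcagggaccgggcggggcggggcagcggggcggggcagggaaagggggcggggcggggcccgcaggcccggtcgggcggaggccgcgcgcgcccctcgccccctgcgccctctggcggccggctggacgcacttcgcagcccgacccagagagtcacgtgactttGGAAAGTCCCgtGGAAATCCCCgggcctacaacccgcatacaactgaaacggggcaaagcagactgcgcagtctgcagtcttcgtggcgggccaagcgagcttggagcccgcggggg
NFKBIA promoter: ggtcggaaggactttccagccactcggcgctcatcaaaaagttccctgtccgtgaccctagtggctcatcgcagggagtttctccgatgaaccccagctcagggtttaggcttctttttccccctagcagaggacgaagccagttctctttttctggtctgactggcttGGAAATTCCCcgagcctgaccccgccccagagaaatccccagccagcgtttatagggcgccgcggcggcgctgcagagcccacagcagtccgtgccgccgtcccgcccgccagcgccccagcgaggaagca
BIRC3 promoter: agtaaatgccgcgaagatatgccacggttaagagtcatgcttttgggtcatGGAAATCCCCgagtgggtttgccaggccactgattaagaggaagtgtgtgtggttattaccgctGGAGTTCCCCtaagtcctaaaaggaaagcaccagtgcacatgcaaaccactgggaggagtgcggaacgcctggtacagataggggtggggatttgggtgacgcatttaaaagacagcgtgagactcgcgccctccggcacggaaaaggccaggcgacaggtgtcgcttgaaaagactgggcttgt

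The promoters of the subunit genes NFKB1, NFKB2 and REL held matches too, although the RNA of these 3 genes did not pass the test. Each is shown with 10 bases on either side and with the position of its first base relative to the gene start. The REL site and the first NFKB2 site overlap a second match on the other strand.
NFKB1, position -49: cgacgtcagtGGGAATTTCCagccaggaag
NFKB2, position -107: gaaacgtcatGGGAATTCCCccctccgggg
NFKB2, position -78: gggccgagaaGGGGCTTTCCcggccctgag
NFKB2, downstream promoter, position -176: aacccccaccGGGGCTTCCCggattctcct
NFKB2, downstream promoter, position -21: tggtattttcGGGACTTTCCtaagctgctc
REL, position -47: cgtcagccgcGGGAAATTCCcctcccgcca
No match was found in the 3 windows listed for TRAF1, whose RNA rose, or in the 2 listed for RELA, whose RNA did not pass the test. A match is a description of the letters and does not show that a factor binds.

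The deposited tables hold 1 mean and 1 contrast for each gene or peak. Whole read counts per library could be worked out from these values for 97.4% of the 17013 genes with an adjusted p and for over 99% of the peaks, and for all 10 member genes and all 54 member peaks. Within each genotype the library of larger size factor is called the deeper library below and is given first. The summed counts of the genes worked out were 31837409 and 30837895 reads in KO and 37501147 and 21382803 in WT, and those of the peaks were 21548977 and 18171673 in KO and 21902393 and 18747915 in WT. The WT RNA libraries were less alike than the KO RNA libraries. Over 5715 genes with a mean of at least 1000, the libraries of a genotype differed by a median factor of 1.03 in KO and 1.19 in WT. The direction of the fold changes is not named in the tables. Positive values were read as higher in KO, because the peak at chr1:192609102-192609836, inside the targeted interval, had the lowest value of all peaks in the authors' deposited table, a log2 difference of -11.71 (SE 1.45, DESeq2 Wald test, adjusted p = 2.16e-14). Of the 18 peaks in that interval 3 were lower, 3 were higher and the others did not pass, so the direction rests on this 1 peak, and if it were coded the other way every direction below would turn. B cell markers were abundant in both genotypes, at 4157 and 4129 CPM in KO and 2857 and 2925 CPM in WT (normalised counts scaled to the summed mean count of the table) for the 10 listed genes, and 4 of them rose while 1 fell. Summed markers of T and NK cells reached 0.60 and 0.414 CPM in KO and 7.41 and 8.92 CPM in WT, and those of myeloid cells 1.54 and 1.06 CPM in KO and 2.17 and 2.42 CPM in WT. Epithelial and fibroblast markers, mostly COL1A1, reached 9.35 and 7.99 CPM in KO and 3.67 and 4.55 CPM in WT. Of these 3 lists, 6, 4 and 7 of 10 genes had no row in the table, among them CD3D, CD163 and EPCAM.

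TNFAIP3, NFKBIA, TRAF1 and BIRC3 rose in KO cells, and none of the 10 genes fell. No subunit gene passed the threshold of an adjusted p under 0.05, and the difference between the subunits and the other members was not tested. The authors' deposited table called 19.2% of all tested genes, 9.89% higher and 9.28% lower in KO, and among genes whose mean normalised count was 1000 or more, where all 10 members lie, 15.4% were called higher. All 10 members had a log2 difference above 0, and their median was 0.48, against 0.016 over all tested genes. In 9 of the 10 genes, RELB being the exception, both KO libraries lay above both WT libraries, an arrangement that 32.6% of all resolved genes showed in that direction and 62.3% in either direction. Levels below are normalised counts, that is, read counts divided by the size factor of the library.

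**Figure D1:**
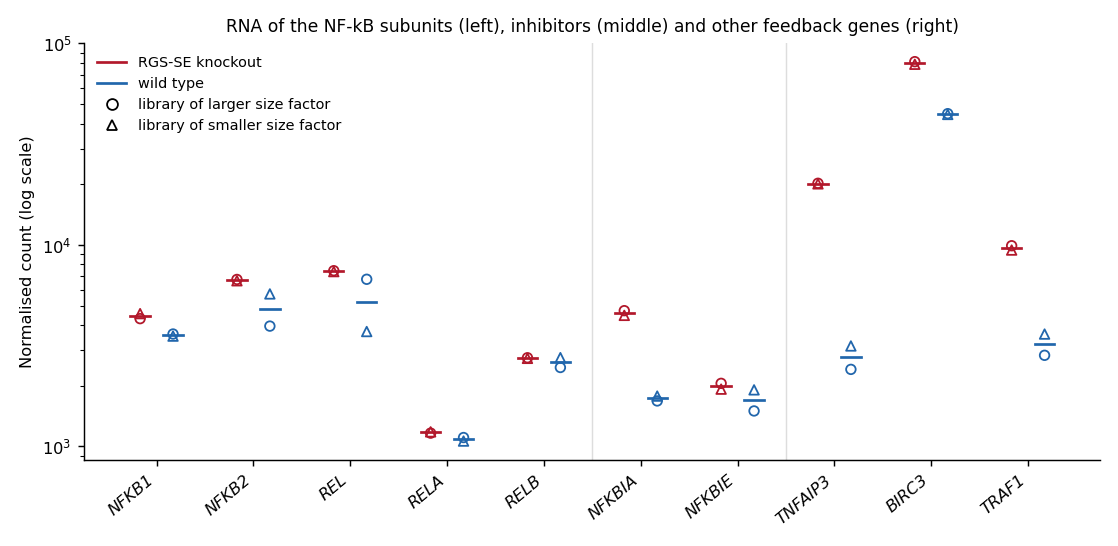
Normalised RNA count of each member gene (log axis) in the 2 KO libraries (red, left) and the 2 WT libraries (blue, right); circles are the deeper and triangles the shallower library of a genotype, and bars are the means. The KO libraries of TNFAIP3 sit at 20219 and 20084, far above the WT libraries at 2411 and 3151, while the RELB libraries overlap.

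TNFAIP3 encodes A20, an enzyme that edits ubiquitin chains on signalling proteins and so shuts down NF-kB activation. It reached 20219 and 20084 normalised counts in KO libraries, against 2411 and 3151 in WT libraries. Both KO libraries stood far above both WT libraries, and the lower KO value was 6.37 times the higher WT value. In the authors' deposited table the log2 difference was 2.86 (SE 0.17, DESeq2 Wald test, adjusted p = 4.82e-61), which is 7.25-fold. By p-value TNFAIP3 ranked 11 among all 17013 tested genes, and by fold change it ranked 11 among the 5731 genes with a mean of at least 1000.

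NFKBIA encodes IkBα, the inhibitor that NF-kB dimers induce and that in turn carries them out of the nucleus. Its normalised counts were 4716 and 4469 in KO libraries, against 1681 and 1777 in WT libraries. The groups did not overlap, and the libraries of each genotype agreed to within a factor of 1.06. The authors' deposited table gave a log2 difference of 1.41 (SE 0.16, DESeq2 Wald test, adjusted p = 7.47e-16), which is 2.66-fold. NFKBIE encodes IkBε, a slower inhibitor that is prominent in B cells. It had 2055 and 1924 normalised counts in KO libraries, against 1500 and 1908 in WT libraries. The lower KO library was only 1.01 times the higher WT library, and the authors' deposited table gave a log2 difference of 0.23 (SE 0.19, DESeq2 Wald test, adjusted p = 0.490), with a 95% interval from -0.15 to 0.60. The 2 inhibitor genes therefore gave different calls, but the difference between their fold changes was not tested.

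TRAF1 encodes an adaptor of TNF receptor signalling that binds TRAF2 and the cellular inhibitors of apoptosis. It had 9905 and 9427 normalised counts in KO libraries, against 2832 and 3610 in WT libraries. Both KO libraries lay above both WT libraries, by at least 2.61 times. The authors' deposited table gave a log2 difference of 1.59 (SE 0.17, DESeq2 Wald test, adjusted p = 2.15e-18). BIRC3 encodes cIAP2, a ubiquitin ligase that acts beside TRAF proteins and limits the alternative NF-kB pathway. It was the most abundant member, with 81156 and 78758 normalised counts in KO libraries, against 44788 and 44397 in WT libraries. The libraries within each genotype were nearly equal, and the authors' deposited table gave a log2 difference of 0.84 (SE 0.14, DESeq2 Wald test, adjusted p = 4.91e-08), which is 1.79-fold. In limma fits that left out 1 library at a time, BIRC3 lost its call without the deeper KO library (log2 difference 0.82, adjusted p = 0.0619) and kept it without any of the other 3, while TNFAIP3, NFKBIA and TRAF1 kept theirs in all 4 fits.

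Among the subunits, REL had the largest log2 difference and the largest disagreement between WT libraries. REL encodes c-Rel, the subunit on which mature B cell activation most depends. It had 7446 and 7370 normalised counts in KO libraries, against 6751 and 3716 in WT libraries. The deeper WT library lay close to the KO libraries and the shallower one far below them. Its WT libraries differed by a factor of 1.82, a gap that 1.56% of genes of like level reached. The authors' deposited table gave a log2 difference of 0.50 (SE 0.23, DESeq2 Wald test, adjusted p = 0.113). In limma fits the REL difference was 1.00 without the deeper WT library and 0.13 without the shallower one, so that 1 library decides its size. NFKB2, whose product is processed into the DNA-binding partner of RELB in the alternative pathway, had 6737 and 6637 normalised counts in KO libraries, against 3954 and 5711 in WT libraries. Here the deeper WT library was the low one, the reverse of REL. The authors' deposited table gave a log2 difference of 0.47 (SE 0.19, DESeq2 Wald test, adjusted p = 0.0647), which became 0.23 in the limma fit without the deeper WT library and 0.76 without the shallower one.

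NFKB1, which encodes the precursor of the most common partner of RELA and REL, had 4305 and 4560 normalised counts in KO libraries, against 3612 and 3526 in WT libraries. The groups were narrow and did not overlap, but the authors' deposited table gave a log2 difference of only 0.31 (SE 0.16, DESeq2 Wald test, adjusted p = 0.162). RELA, which encodes the main activating subunit of the classical pathway, had 1164 and 1181 normalised counts in KO libraries, against 1107 and 1063 in WT libraries. RELB, the activating subunit of the alternative pathway, had 2754 and 2735 normalised counts in KO libraries, against 2464 and 2758 in WT libraries, and its groups overlapped. In the authors' deposited table the RELA difference was 0.11 (SE 0.20, DESeq2 Wald test, adjusted p = 0.786), with a 95% interval from -0.27 to 0.49. The RELB difference in the authors' deposited table was 0.07 (SE 0.17, DESeq2 Wald test, adjusted p = 0.850), with a 95% interval from -0.26 to 0.40. These intervals leave room for changes of up to about that size in either direction. In limma fits that left out 1 library at a time, the NFKB1 difference ran from 0.27 to 0.35. The NFKBIE difference ran from 0.06 to 0.41.

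Per kilobase of exon, the order of the members differed between the genotypes. Length was the union of all annotated exons of a gene, 2.58 kb for NFKBIE and 17.1 kb for REL. The order across genes therefore depends on that annotation as well. In KO cells the order was BIRC3 (10684 normalised counts per kb, mean of both libraries), TNFAIP3 (3128), TRAF1 (2159), NFKBIA (1353), NFKB2 (1198), RELB (916), NFKBIE (771), REL (432), NFKB1 (283) and RELA (215). No neighbours in that order overlapped between their libraries in KO cells. In WT cells BIRC3 was again first at 5958 normalised counts per kb, followed by RELB (871), NFKB2 (866), TRAF1 (720), NFKBIE (660), NFKBIA (510), TNFAIP3 (432), REL (306), NFKB1 (228) and RELA (199). In WT cells RELB overlapped with NFKB2, NFKB2 with TRAF1, TRAF1 with NFKBIE, TNFAIP3 with REL and REL with NFKB1. TNFAIP3 was thus the second highest member in KO cells and the seventh in WT cells.

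Of the 54 peaks annotated to the members, 11 were more accessible and 5 less accessible in KO cells, and 38 did not pass the test. Over all peaks 35.9% were called, 20.4% higher and 15.5% lower, so the members' counts lay close to the background. The genes whose RNA rose held 29 peaks, of which 9 were higher and 0 lower in the authors' deposited DESeq2 table, and the other 6 genes held 25 peaks, of which 2 were higher and 5 lower. TNFAIP3 held 4 of the 9 and RELB 4 of the 5, and the 24 peaks of NFKBIA, TRAF1 and BIRC3 held 5 higher ones, a share near the background. Peaks of 1 gene share a locus and the same libraries and are not independent replicates. Within 1 kb of a start site 2 member peaks were higher and 1 lower of 11, against 14.7% higher and 19.0% lower over all such peaks. Beyond 1 kb, 9 were higher and 4 lower of 43, against 21.5% higher and 14.8% lower. Peak values below are normalised insertion counts, and the libraries of the genotypes did not overlap in 73.3% of all resolved peaks, in either direction.

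**Figure D2:**
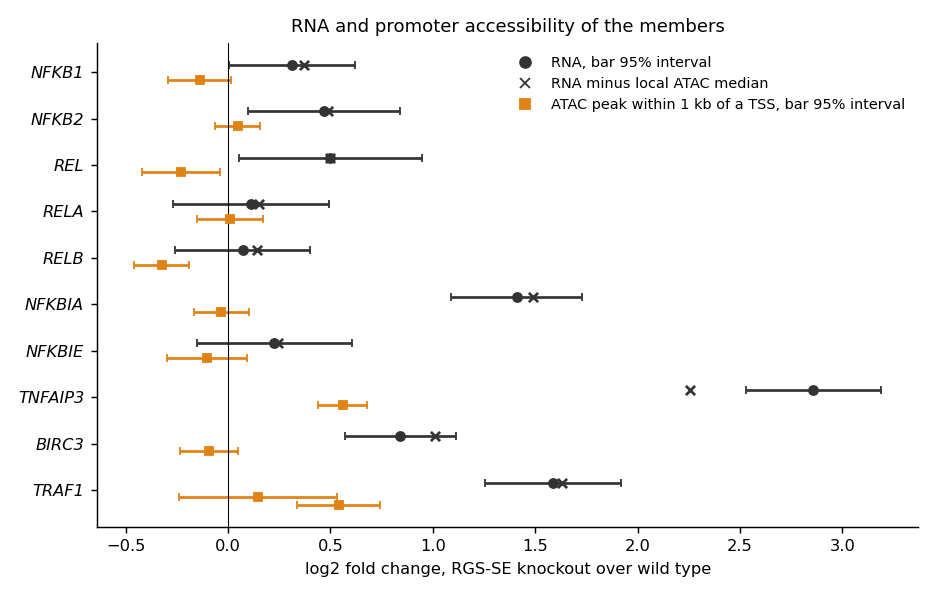
Log2 difference, KO over WT, of each member's RNA (circles, bars are 95% intervals), of the RNA after subtracting the median ATAC difference of the peaks within 5 Mb (crosses) and of each ATAC peak within 1 kb of a start site (orange squares, bars are 95% intervals). The RNA of NFKBIA and BIRC3 rose by 1.41 and 0.84 while their promoter peaks were at -0.03 and -0.09, and the RELB promoter peak lay below 0 at -0.32.

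At TNFAIP3, 4 of 5 peaks were more accessible in KO cells. The promoter peak, chr6:137866474-137868313, 135 bp past the start and annotated to the first exon and 5' UTR, covers the promoter sequence printed above. It had 2283 and 2454 normalised counts in KO libraries, against 1615 and 1594 in WT libraries. The authors' deposited table gave it a log2 difference of 0.56 (SE 0.06, DESeq2 Wald test, adjusted p = 1.62e-18). Larger differences lay upstream, where distances from the start are given as negative. The peak at -55.5 kb, chr6:137811240-137812217, had 477 and 502 normalised counts in KO libraries, against 145 and 212 in WT libraries, and the peak at -39.0 kb, chr6:137827722-137828750, had 463 and 440 in KO libraries, against 163 and 171 in WT libraries. In the authors' deposited table these differences were 1.46 (SE 0.16, DESeq2 Wald test, adjusted p = 3.33e-17) and 1.44 (SE 0.15, adjusted p = 1.52e-19). The peak at -47.0 kb had 366 and 332 normalised counts in KO libraries, against 165 and 193 in WT libraries, a log2 difference of 0.97 in the authors' deposited table (DESeq2 Wald test, adjusted p = 5.99e-08). The peak at -20.2 kb had 258 and 219 in KO libraries, against 171 and 184 in WT libraries, and missed the threshold narrowly in the authors' deposited table (log2 difference 0.43, SE 0.18, DESeq2 Wald test, adjusted p = 0.0506).

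TNFAIP3 lies in a stretch of chromosome 6 where over 50% of the peaks were higher in KO cells. Of the 312 other peaks within 5 Mb, 170 were higher and 8 lower in KO, with a median log2 difference of 0.60, and of the 33 other tested genes there 13 rose and 0 fell, and their median was 0.82. For the other 9 members the local ATAC median lay between -0.17 and 0.0025. Relative to the local ATAC median the TNFAIP3 RNA difference was 2.26 and remained past the threshold (Wald test with the deposited SE, adjusted p = 9.75e-38). Relative to that median the promoter peak was at -0.043 (adjusted p = 0.643), turning its sign, as did the peak at -20.2 kb at -0.17 (adjusted p = 0.512), and the peak at -47.0 kb was at 0.36 (adjusted p = 0.0811). The peaks at -55.5 and -39.0 kb were still 0.85 and 0.84 above the local median. The part of this regional shift in the TNFAIP3 result was not tested.

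**Figure D3:**
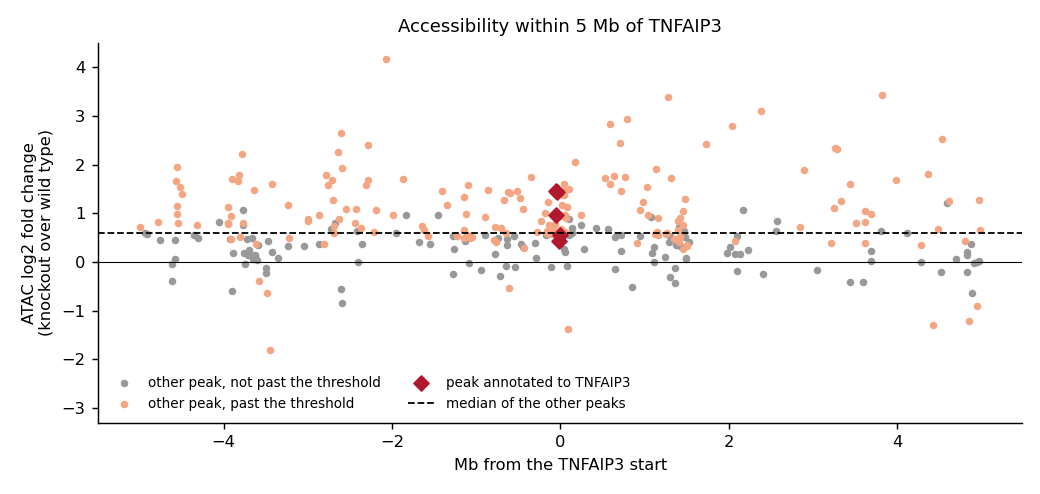
ATAC log2 difference, KO over WT, of every peak within 5 Mb of the TNFAIP3 start against its distance in Mb; red diamonds are the peaks annotated to TNFAIP3 and the dashed line is the median of the other 312 peaks, 0.60. The promoter diamond lies near the line and the upstream diamonds at 1.46 and 1.44 lie above it.

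At NFKBIA the promoter peak did not change measurably, although the RNA rose 2.66-fold. This peak, chr14:35403576-35405220, covers the promoter sequence printed above and had 1744 and 1602 normalised counts in KO libraries, against 1773 and 1649 in WT libraries. The groups overlapped, and the authors' deposited table gave a log2 difference of -0.03 (SE 0.07, DESeq2 Wald test, adjusted p = 0.757). The peak at -11.6 kb, chr14:35415548-35417216, opened in KO cells, with 259 and 255 normalised counts in KO libraries, against 124 and 117 in WT libraries, and the authors' deposited table gave 1.09 (SE 0.19, DESeq2 Wald test, adjusted p = 1.04e-07). The peak 28.9 kb past the start, chr14:35375547-35376229, had 117 and 131 normalised counts in KO libraries, against 81.7 and 74.1 in WT libraries, a log2 difference of 0.66 in the authors' deposited table (SE 0.26, DESeq2 Wald test, adjusted p = 0.0292). The last of these lost its call in the limma fit without the shallower KO library (log2 difference 0.58, adjusted p = 0.0637). Among the other NFKBIA peaks, 5 in number, values ran from -0.63 to 0.38 and none passed.

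At TRAF1, accessibility rose at 2 of 6 peaks, both inside the gene. The peak at an internal start, chr9:120925883-120926917, had 736 and 751 normalised counts in KO libraries, against 518 and 504 in WT libraries. The authors' deposited table gave it a log2 difference of 0.54 (SE 0.10, DESeq2 Wald test, adjusted p = 1.49e-06). The peak 5.6 kb past a start had 399 and 456 normalised counts in KO libraries, against 308 and 324 in WT libraries, a log2 difference of 0.44 in the authors' deposited table (SE 0.14, DESeq2 Wald test, adjusted p = 0.00616), and it lost its call without the shallower KO library (limma, adjusted p = 0.0530). The peak at the outer start, 43 bp past it, had 183 and 168 in KO libraries, against 163 and 154 in WT libraries, and did not pass in the authors' deposited table (0.15, DESeq2 Wald test, adjusted p = 0.604). The tallest TRAF1 peak, at -6.92 kb, had a log2 difference of -0.07 and the one at -2.64 kb 0.08, and neither passed.

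At BIRC3, 1 of 10 peaks was higher, the one at -81.3 kb, chr11:102235673-102236755. It had 162 and 171 normalised counts in KO libraries, against 108 and 82.6 in WT libraries, a log2 difference of 0.80 in the authors' deposited table (SE 0.23, DESeq2 Wald test, adjusted p = 0.00256). The promoter peak, chr11:102317057-102317819, which covers the sequence printed above, had 1449 and 1444 normalised counts in KO libraries, against 1460 and 1629 in WT libraries. Both KO libraries lay just below the lower WT library, and it did not pass in the authors' deposited table (-0.09, SE 0.07, DESeq2 Wald test, adjusted p = 0.329). The peak at -16.5 kb had a larger log2 difference of 1.03 in the authors' deposited table but few reads, 40.8 and 41.7 in KO libraries, against 17.2 and 23.3 in WT libraries (DESeq2 Wald test, adjusted p = 0.0647). The BIRC3 peaks with the highest means after the promoter, at -10.7 kb and 1.33 kb, had log2 differences of -0.04 and 0.01.

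**Figure D4:**
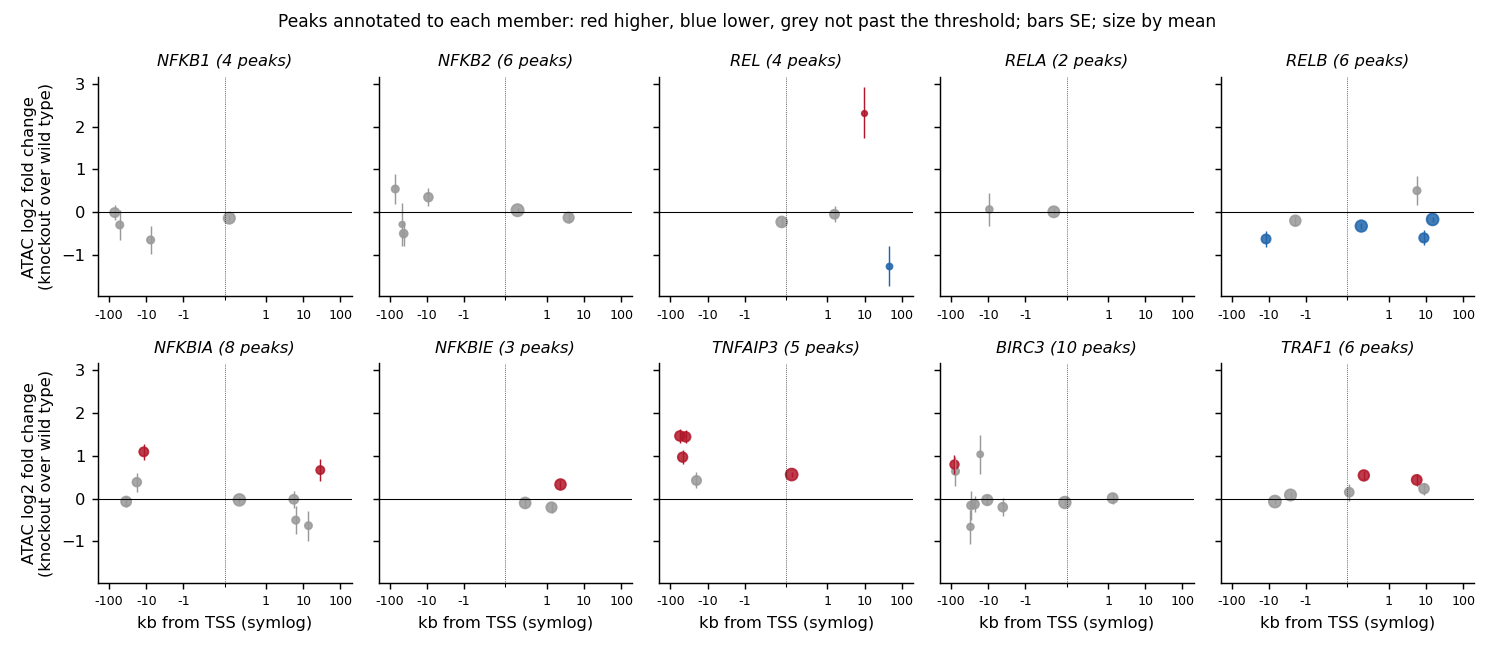
ATAC log2 difference, KO over WT, of each of the 54 member peaks against its distance in kb from the start site (symmetric log axis, linear within 1 kb); red peaks were higher, blue lower and grey not past the threshold, bars are 1 SE and larger points have a higher mean count. Red peaks lie mostly at TNFAIP3, NFKBIA and TRAF1, and 4 of the 5 blue peaks lie at RELB.

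At RELB 4 of 6 peaks were less accessible in KO cells and 0 more accessible, while its RNA did not pass the test. All 4 lost their calls against a 1.5-fold change (adjusted p = 1.0) and with the Wald statistics divided by their robust SD (adjusted p from 0.465 to 0.867). The same loss in both settings was seen at the higher peaks of NFKBIA, TRAF1, BIRC3 and NFKBIE. It was also seen at the TNFAIP3 peak at -47.0 kb and the lower REL peak. The RELB promoter peak, chr19:45001197-45002398, had 1233 and 1236 normalised counts in KO libraries, against 1534 and 1555 in WT libraries. Both genotypes were tight, and the authors' deposited table gave a log2 difference of -0.32 (SE 0.07, DESeq2 Wald test, adjusted p = 2.16e-05). The upstream peak at chr19:44989052-44989833 had 155 and 155 normalised counts in KO libraries, against 222 and 256 in WT libraries, and the one 8.8 kb inside the gene had 200 and 180 in KO libraries, against 254 and 323 in WT libraries. In the authors' deposited table these differences were -0.63 (SE 0.19, DESeq2 Wald test, adjusted p = 0.00330) and -0.60 (SE 0.18, adjusted p = 0.00335). The tallest RELB peak, 15.1 kb inside the gene at chr19:45015748-45017386, had 1825 and 1786 normalised counts in KO libraries, against 2013 and 2047 in WT libraries, a small log2 difference of -0.17 in the authors' deposited table (SE 0.06, DESeq2 Wald test, adjusted p = 0.0151). Relative to the local median it was at -0.10 and no longer passed (adjusted p = 0.192).

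At the remaining members, NFKBIE, REL, NFKB1, NFKB2 and RELA, 2 peaks were higher and 1 lower. The NFKBIE peak 2.3 kb inside the gene, chr6:44262926-44264073, had 731 and 813 normalised counts in KO libraries, against 644 and 580 in WT libraries, a log2 difference of 0.33 in the authors' deposited table (SE 0.10, DESeq2 Wald test, adjusted p = 0.00565) that missed the threshold without the shallower KO library (limma, adjusted p = 0.0582). The NFKBIE promoter peak was at -0.10 and did not pass. REL had 2 changed peaks of low count, 1 of them with the largest log2 difference of all member peaks. The one 9.7 kb inside the gene had 31.6 and 46.1 normalised counts in KO libraries, against 10.9 and 4.24 in WT libraries (log2 difference 2.33, SE 0.60, authors' deposited table, DESeq2 Wald test, adjusted p = 0.000556). The one in the last exon, annotated as 3' UTR, had 17.6 and 17.6 in KO libraries, against 38.1 and 46.6 in WT libraries (-1.26, SE 0.47, authors' deposited table, DESeq2 Wald test, adjusted p = 0.0235). The REL promoter peak had 706 and 691 normalised counts in KO libraries, against 863 and 770 in WT libraries, and fell just short of the threshold in the authors' deposited table (-0.23, SE 0.10, DESeq2 Wald test, adjusted p = 0.0525). No peak of NFKB1, NFKB2 or RELA passed. The NFKB2 promoter peak, the tallest of all member peaks, had 2484 and 2651 normalised counts in KO libraries, against 2409 and 2561 in WT libraries, and its groups overlapped. The RELA promoter peak had 976 and 970 in KO libraries, against 958 and 975 in WT libraries, and overlapped as well. The NFKB1 promoter peak had 1045 and 1053 in KO libraries, against 1123 and 1187 in WT libraries, so that its KO libraries lay below its WT libraries, and it did not pass in the authors' deposited table (-0.14, DESeq2 Wald test, adjusted p = 0.163).

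In the central 300 bases of each peak, the kB consensus was found at 7 of the 54 member peaks and at 7.27% of all peaks. Over the whole table the consensus was present in 12.9% of the peaks higher in KO, 4.82% of those lower and 6.09% of those not past the threshold, given as a description with no test. Among the member peaks it was present in 2 of 11 higher, 1 of 5 lower and 4 of 38 others. These counts cover only the centre of a peak. The promoter peaks of TNFAIP3, NFKBIA, NFKB1 and NFKB2 counted as without a match, because the promoter sites printed above lie outside that window. A pattern of another factor family, AP-1 (TGANTCA, both strands), was present in 5 of the 54 member peaks and in 10.8% of all peaks. The 3 changed member peaks that hold a kB match are shown, with the matches in capitals. They lie, on the plus strand of hg38, at chr6:44263369-44263610 (the NFKBIE peak that opened), chr14:35375984-35376013 (the NFKBIA peak 28.9 kb past the start) and chr19:45016514-45016632 (the RELB peak 15.1 kb inside the gene that closed slightly).
NFKBIE, 2.3 kb inside the gene: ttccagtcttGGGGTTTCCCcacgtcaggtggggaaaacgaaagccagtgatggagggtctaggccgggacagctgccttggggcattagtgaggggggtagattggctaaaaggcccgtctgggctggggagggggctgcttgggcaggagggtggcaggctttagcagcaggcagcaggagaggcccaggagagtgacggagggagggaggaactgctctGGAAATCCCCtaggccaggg
NFKBIA, 28.9 kb past the start: ctcaggactgGGGGCTTTCCcgaggataga
RELB, 15.1 kb inside the gene: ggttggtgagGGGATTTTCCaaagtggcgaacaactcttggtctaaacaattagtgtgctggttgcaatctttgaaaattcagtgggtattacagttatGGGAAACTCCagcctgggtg
The TNFAIP3 peaks upstream of the gene and the NFKBIA peak at -11.6 kb held no kB match in that window, which says only that these letters are not there. The TNFAIP3 peak at -55.5 kb, which was higher in KO, held 2 AP-1 matches.

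Of 99 other tested pathway genes on the lists, 42 were higher and 8 lower in KO, against 9.89% and 9.28% of all tested genes. Of the 39 tested target genes, 28 were higher and 0 lower, with a median log2 difference of 1.19. The lists were drawn up with earlier results of these data known, so their direction is not independent evidence.

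**Figure D5:**
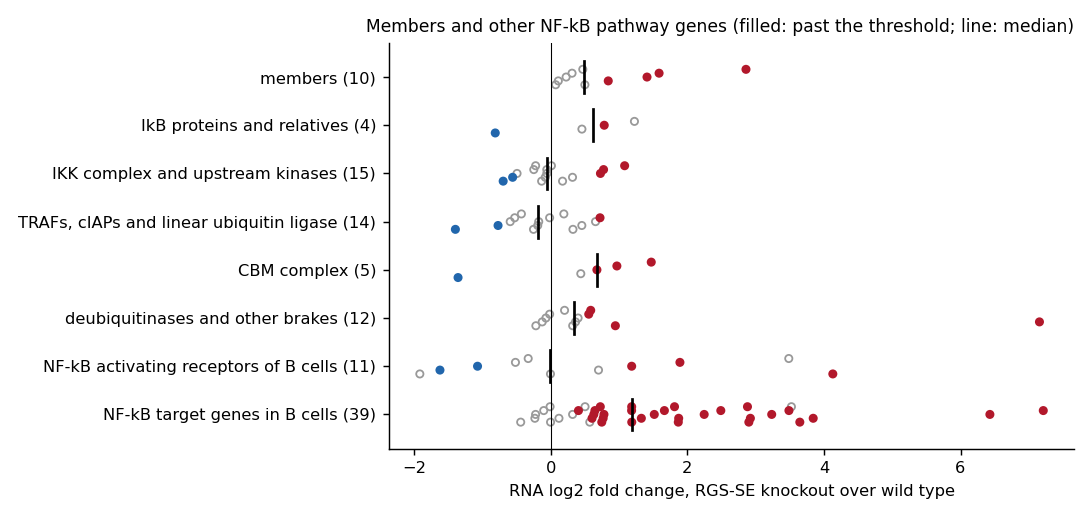
RNA log2 difference, KO over WT, of the 10 members and of the other tested genes of each pathway list, with the number of genes in brackets; filled points passed the threshold (red higher, blue lower), open points did not, and black lines are medians. The target genes centre on 1.19 and the members on 0.48, while the kinases centre on -0.06.

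The target genes named by smallest p were IRF4, CCL22, RGS1, CCR7, FCER2 and VIM. IRF4, a factor that drives B cell activation and plasma cell fate, had 9327 and 8742 normalised counts in KO libraries, against 725 and 717 in WT libraries. The authors' deposited table gave it a log2 difference of 3.65 (SE 0.16, DESeq2 Wald test, adjusted p = 1.25e-112). CCL22, a chemokine, had 6526 and 6339 in KO libraries, against 719 and 644 in WT libraries, and CCR7, the receptor that guides lymphocytes to lymph nodes, had 7202 and 6826 in KO libraries, against 804 and 1050 in WT libraries. FCER2, the B cell activation marker CD23, had 3745 and 3507 in KO libraries, against 469 and 504 in WT libraries. RGS1, a regulator of G protein signalling that lies inside the targeted interval, had 4840 and 4805 in KO libraries, against 471 and 385 in WT libraries. On this reading of the direction, a gene inside the interval targeted for removal was thus higher in KO. How much of the interval was lost in KO cells was not tested. VIM, a filament protein, had 13999 and 13683 in KO libraries, against 3575 and 4013 in WT libraries. In all 6 genes both KO libraries stood above both WT libraries, by log2 differences from 1.87 to 3.65 in the authors' deposited table. These genes were picked by smallest p, so the separation follows from the choice and is not a further result. Over all resolved genes 32.6% showed it in that direction.

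Upstream of the members, 5 tested genes were listed that link the B cell receptor to NF-kB. Of these, 3 were higher in KO (PRKCB, PDPK1 and MALT1) and 1 was lower, so the list did not move in 1 direction. PRKCB, the B cell protein kinase C, had 9197 and 9171 in KO libraries, against 3259 and 3363 in WT libraries (1.47, SE 0.15, authors' deposited table, DESeq2 Wald test, adjusted p = 2.36e-20). MALT1, a protease, was at 0.68 and PDPK1, a kinase, at 0.97. Peaks within 5 Mb of PRKCB and PDPK1 had median log2 differences of 0.53 and 1.03, and the part of these regional shifts was not tested. Among 11 receptors 3 were higher and 2 lower. CD40, which activates the pathway in B cells and is also on the target list, had 3282 and 3200 normalised counts in KO libraries, against 1417 and 1434 in WT libraries (1.19, SE 0.17, authors' deposited table, DESeq2 Wald test, adjusted p = 1.29e-10). TNFRSF17, the plasma cell receptor BCMA, was at 1.89 with a local ATAC median of 0.98, and IL1R1, an interleukin receptor, was at 4.13 from at most 4 reads in a WT library. CD27, a memory B cell receptor, and TNFRSF1B, a TNF receptor, were lower, at -1.07 and -1.62.

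Of 15 kinase complex genes 3 rose and 2 fell, and the median was -0.06. TAB2, MAP3K7 and IKBKB were higher, at 1.08, 0.73 and 0.77, and all 3 lie where local peaks were also higher, with ATAC medians of 0.56, 0.64 and 0.78. IRAK1 and RIPK2, kinases of interleukin and innate receptors, were lower, at -0.70 and -0.56. Of 14 TRAF, cIAP and linear ubiquitin ligase genes 3 were called, a share near the 19.2% over all tested genes. TANK was higher at 0.72, and TRAF2, the partner of TRAF1, and SHARPIN were lower at -0.77 and -1.40, with a local ATAC median of -0.87 at SHARPIN. Of 12 tested brakes 4 were higher and 0 lower. CYLD, a deubiquitinase, COMMD1 and ITCH, a ubiquitin ligase that works with TNFAIP3, were at 0.59, 0.95 and 0.56. TNIP3, which encodes a partner of TNFAIP3, also passed, with a mean of only 13.6 normalised counts over the 4 libraries, and its reads per library were not resolved. Of the 4 other IkB family genes, NFKBIZ, an inducible nuclear member, was higher at 0.78 and NFKBIB was lower at -0.81.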

How the data were processed

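RNA-seq and ATAC-seq of RGS-SE knockout and wild-type Raji cells were used, 2 libraries per genotype and assay, 8 in all, with 50000 cells per ATAC library. Per the submitters' processing notes, reads were handled with STAR, featureCounts, Bowtie2, HOMER, DESeq2, Trimmomatic, Trim Galore and cutadapt on GRCh38 or hg38. Tool versions and the calling of peaks are not stated there. The deposited tables hold DESeq2 results, per the file headers. The deposited signal is the mean over 4 libraries of counts divided by size factors, the deposited effect is a log2 fold change with its SE, the deposited score is the Wald statistic, and the deposited p-value comes with its Benjamini-Hochberg adjustment. The planned edgeR test could not be used, because the files hold no column of counts, and the deposited DESeq2 Wald test with an adjusted p under 0.05 over the whole table took its place.

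The deposited means carry 15 significant digits. Each is a sum of whole reads divided by 4 times the size factor of a library, so size factors were solved from the lowest means, and read counts from each mean with its fold change and SE. A solution was kept when its refitted negative binomial fold change lay within 1e-05 of the deposited one and no other solution came within 100 times of that gap. The median gap was 1.3e-08 in RNA and 4.3e-09 in ATAC. The procedure was tested on simulated data. Libraries can be told apart within a genotype only by size factor (RNA 1.07 and 1.03 in KO, 1.30 and 0.717 in WT; ATAC 1.08 and 0.911 in KO, 1.10 and 0.944 in WT), not by replicate number. The libraries of a genotype differed by more than sampling noise, with a chi-square per gene of 4.63 in KO and 75.0 in WT for RNA, and per peak of 1.98 in KO and 2.00 in WT for ATAC, so no library is another deposited again, while repeat preparations of 1 culture cannot be told apart from separate cultures by this. No label says that replicates came from separate clones, so p-values measure the spread between these libraries only.

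The members and lists were chosen with earlier results of these data known. All 10 members are named, with every peak within 1 kb of a start, up to 4 further peaks per member by adjusted p and 2 by mean, and up to 6 genes of each other list by adjusted p. A few further peaks are given by value only. Local medians use peaks or genes within 5 Mb, leaving out the member. As alternatives, p-values were adjusted over all features, limited to a mean of at least 100, tested against a 1.5-fold change, divided by the robust SD of all Wald statistics, or centred on all features, the chromosome or the local median. limma 3.58.1 in R 4.3.3, on log2(recovered normalised count + 1), with and without each library, was chosen after seeing the data as the means of running the planned omission of replicates. Gene models came from GENCODE release 44. How the counting treated strand and overlapping genes is not stated. A gene of the pathway lists is not reported here.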

Additional observations from a re-analysis of the deposited data

How the results depend on the processing

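The 4 member genes higher in KO and the absence of lower ones held under centring on all genes, on the chromosome or on the local ATAC median, under adjustment over all genes and in limma with all libraries. BIRC3 missed the threshold against a 1.5-fold change (adjusted p = 0.677), and NFKB2 passed among genes with a mean of at least 100 (adjusted p = 0.0473). Against a 1.5-fold change the other pathway lists had 18 genes higher and 1 lower, and the member peaks 3 higher and 0 lower. With statistics divided by their robust SD these counts were 20 higher and 2 lower, and 3 higher and 0 lower. The 3 peaks were those of TNFAIP3 at -55.5 and -39.0 kb in both cases, with that of REL at 9.69 kb in the first and the TNFAIP3 promoter in the second. The shares of all genes and all peaks called in these settings are not given. The counts are therefore not read as a result about the lists or the members. Among peaks within 1 kb of a start, 2 were higher and 1 lower. In limma with all libraries 14 member peaks were higher and 8 lower of 54. Over all 70288 resolved peaks the same fit called 17863 higher and 15473 lower, so the member counts do not stand out. The TNFAIP3 promoter peak turned to -0.043 relative to its local median. The cause was not tested.

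Leaving out each library in turn (limma, the lone library of a genotype assumed to vary like the other pair) gave 3 to 8 member genes higher and 0 lower, 21 to 59 other pathway genes higher and 4 to 23 lower, and 9 to 14 member peaks higher and 5 to 11 lower. Over all genes 1022 and 1024 were called without a KO library and 9777 and 6804 without the deeper and the shallower WT library, against 2499 with all 4. The widely differing WT pair sets the spread in the first case and the close KO pair in the second. Each of these fits tested 16571 genes, so calls were common among all genes in the second case. Among all peaks calls were common in every such fit, so the member peak counts are not read as a result about the members. No paired analysis was possible because the recovered libraries cannot be matched to the replicate numbers. With 2 libraries per genotype, small differences of the subunits were not detectable beyond their intervals.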
